A study of Mus musculus with 5 samples.

Results

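The clustered histone genes are the genes of the histone gene clusters of the mouse, taken here as every gene of the deposited count table whose symbol begins with Hist1h, Hist2h, Hist3h or Hist4h. They numbered 68 of 22869 genes, each read from its row with the highest mean count and with no filter on low counts: 6 genes of the linker histone H1, 18 of H2a, 19 of H2b, 12 of H3 and 13 of H4. The Hist1 cluster held 54 of them, the Hist2 cluster 10, the Hist3 cluster 3 and the Hist4 cluster 1. Intervillus cells came from newborn mutants with Dnmt1 floxed and a Cre driven by the Villin promoter, and from control littermates. Areas without staining for the proliferation protein Ki67 were taken from the mutants and areas with it from the controls. Between these, 49 of the 53 genes with enough reads for a test were lower in the mutants. Of all genes tested, 50.8% were lower. The test was passed by 3, Hist1h1b, Hist1h2ac and Hist1h2bl, all lower in mutants, a share near the 4.17% of all genes called lower.

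Nucleosomes wrap DNA around an octamer of the core histones H2A, H2B, H3 and H4, and linker histone H1 binds where the DNA enters and leaves. Cells that copy their genome need new histones at the same time, and the clustered genes, which exist in many near-identical copies, supply them in S phase, the phase of the cell cycle in which DNA is copied. Their messenger RNAs usually end in a conserved stem-loop in place of a poly(A) tail; the stem-loop is bound by the protein Slbp, which the RNA needs for its processing and translation, and the RNAs decay when replication stops. Some clustered genes also give longer polyadenylated transcripts in cells that have stopped dividing.

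The mutant libraries came from mice of genotype Dnmt1 L/L; VillinCre, which carry the floxed allele of Dnmt1 on both chromosomes and a Cre recombinase driven by the Villin promoter, active in gut epithelium. The control libraries came from littermates of genotype Dnmt1 L/+, with the floxed allele on 1 chromosome; whether they carried Cre is not stated in the labels. Dnmt1 is the methyltransferase that copies DNA methylation onto the new strand after replication. All mice were newborn (postnatal day 0), and intervillus cells, the proliferating epithelium between the villi, were cut from the proximal jejunum by laser. Areas without staining for the proliferation protein Ki67 were taken from mutants and areas with it from controls, so that Dnmt1 loss and the choice of areas cannot be told apart in any value below. There were 2 mutant libraries, numbered 4 and 6, and 3 control libraries, numbered 1, 2 and 3; since the labels do not tie each library to its own mouse, p-values reflect how far these libraries spread, technical spread included.

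With 1 row per gene the mutants held 8730268 and 10260760 reads and the controls 10530200 to 13356901. Dnmt1 itself had 37.8 and 40.5 CPM (read counts scaled to library size, with TMM normalization) in mutants 4 and 6, against 123, 128 and 95.1 CPM in controls 1, 2 and 3 (log2 fold change with its SE, -1.56 ± 0.16; edgeR adjusted p = 3.74e-05). Mki67, the gene of the Ki67 protein, had 511 and 506 CPM in mutants against 927, 1022 and 773 CPM in controls. Epithelial markers were abundant in every library, with Epcam at 873 to 1107 CPM and Vil1 at 683 to 761 CPM. Y-linked genes together had 4 and 3 counts in the mutants against 2710 to 3160 in the controls. Xist had 10179 and 8277 counts in the mutants against 42 to 72 in the controls. By these sex-linked transcripts the mutant libraries read as female and the control libraries as male, though the labels give no sex. Sex, genotype and choice of areas therefore cannot be told apart. Log2 fold changes throughout are mutant over control, and an adjusted p is that of edgeR's quasi-likelihood test with Benjamini-Hochberg adjustment over all rows tested, called at 0.05.

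The stem-loop typical of these genes is shown here because it could be read in most of their reference transcripts (GENCODE M21, build GRCm38). Of the 67 members with a reference transcript, 45 held a 16-base stem-loop pattern on the transcribed strand (GG, any 2 bases, CTT, any base, T, any base, AG, any 2 bases, CC), against 90 of 21834 other protein-coding genes (0.41%). Most members with a match, 25 of the 45, had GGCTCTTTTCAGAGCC, while all 12 matches among the H4 genes had other arms. No match says only that these letters are not in that reference transcript, which may stop short of the stem-loop. Those of Hist1h1b and Hist1h2bl, 743 and 381 bases long, held none. Capitals below mark the matched pattern, with 5 bases on either side, 5′ to 3′ on the gene's own strand.
Hist1h1c: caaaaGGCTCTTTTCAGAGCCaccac
Hist1h1e: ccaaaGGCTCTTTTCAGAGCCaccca
Hist1h2ac: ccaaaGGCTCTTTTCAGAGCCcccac
Hist1h2bm: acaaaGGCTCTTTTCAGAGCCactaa
Hist1h3e: aaaacGGCTCTTTTAAGAGCCacctc
Hist1h3g: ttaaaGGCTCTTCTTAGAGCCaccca
Hist1h4d: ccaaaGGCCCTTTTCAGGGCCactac
Hist2h4: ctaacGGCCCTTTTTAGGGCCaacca

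In GRCm38 these stretches lie at chr13:23739507-23739532 on the plus strand (Hist1h1c), chr13:23621777-23621802 on the minus strand (Hist1h1e), chr13:23683472-23683497 on the minus strand (Hist1h2ac), chr13:21722501-21722526 on the plus strand (Hist1h2bm), chr13:23561898-23561923 on the minus strand (Hist1h3e), chr13:23535884-23535909 on the plus strand (Hist1h3g), chr13:23581945-23581970 on the plus strand (Hist1h4d) and chr3:96262934-96262959 on the minus strand (Hist2h4). All lie in the 3′ untranslated part of their transcripts. The stem arms of the H1, H2a, H2b and H3 genes shown pair GGCTCT with AGAGCC, and those of Hist1h4d and Hist2h4 pair GGCCCT with AGGGCC. The loop between the arms is TTTC in all of these genes but Hist1h3e, Hist1h3g and Hist2h4. The reference transcript ran on for 46 bases past the stem-loop in Hist1h2bm and 47 in Hist1h3g, but for 770 in Hist1h4d, 840 in Hist1h1c, 1153 in Hist1h1e and 2010 in Hist1h2ac.

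Promoters are shown for the 3 members that passed the test and for Hist1h1c, the H1 gene on the other side of 0. They are the 250 bases before the transcription start from RefSeq (GRCm38.p6), in which 62 members were matched. The following 4 elements were searched on both strands: the octamer ATTTGCAT, known from H2b promoters as a site of Oct-1, the element CCAAT, the TATA element TATAAA and the H1 element AAACACA; no 2 matches overlapped in a member's promoter. Capitals mark any match on either strand.
Hist1h1b: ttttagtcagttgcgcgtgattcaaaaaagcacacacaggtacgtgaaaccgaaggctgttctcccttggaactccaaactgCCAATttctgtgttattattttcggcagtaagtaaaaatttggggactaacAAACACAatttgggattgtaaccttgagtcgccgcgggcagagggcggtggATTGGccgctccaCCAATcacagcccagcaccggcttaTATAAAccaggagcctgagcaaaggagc
Hist1h1c: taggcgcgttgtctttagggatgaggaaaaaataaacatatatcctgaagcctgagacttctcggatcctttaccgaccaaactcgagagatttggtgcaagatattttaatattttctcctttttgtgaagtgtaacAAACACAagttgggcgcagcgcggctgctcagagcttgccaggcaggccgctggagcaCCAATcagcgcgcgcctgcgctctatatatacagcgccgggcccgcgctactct
Hist1h2ac: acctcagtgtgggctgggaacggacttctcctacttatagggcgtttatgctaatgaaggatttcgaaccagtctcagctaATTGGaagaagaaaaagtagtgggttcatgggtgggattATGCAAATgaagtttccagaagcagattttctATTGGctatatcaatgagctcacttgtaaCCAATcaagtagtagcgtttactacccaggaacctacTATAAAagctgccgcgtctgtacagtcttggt
Hist1h2bl: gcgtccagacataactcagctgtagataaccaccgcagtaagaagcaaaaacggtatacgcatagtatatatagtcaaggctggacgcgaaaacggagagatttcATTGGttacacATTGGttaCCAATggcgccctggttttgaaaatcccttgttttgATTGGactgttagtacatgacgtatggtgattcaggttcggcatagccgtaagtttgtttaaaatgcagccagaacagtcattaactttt

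These windows lie at chr13:21780626-21780875 on the minus strand (Hist1h1b), chr13:23738557-23738806 on the plus strand (Hist1h1c), chr13:23683960-23684209 on the minus strand (Hist1h2ac) and chr13:21716184-21716433 on the minus strand (Hist1h2bl). The octamer was in 13 of the 62 promoters (21.0%), all of H2a (7 of 18) and H2b (6 of 16) genes, against 1.57% of 26963 promoters of other genes. Some windows of neighbouring H2a and H2b genes overlap, and an element there is counted for both. The octamer was shared in this way by Hist1h2aa and Hist1h2ba, by Hist1h2ae and Hist1h2bg, and by Hist1h2ah and Hist1h2bk. CCAAT was in 82.3% of member promoters against 34.35% of the others, and was found in every H1, H2a and H2b promoter matched, in 8 of 10 H3 promoters and in 3 of 12 H4 promoters. TATAAA was in 46.8% against 12.89%, and the H1 element in 5 of 6 H1 promoters and 14.5% of all member promoters against 6.2%. Hist1h1b and Hist1h1c thus both held the H1 element and CCAAT, and both the octamer and TATAAA were in the promoter of Hist1h2ac and in that of Hist1h2bl neither was found. The 9 tested H2a and H2b genes with an octamer had a median log2 fold change of -0.56 (range -1.85 to 0.08). The 16 with a matched promoter and no octamer had -0.70 (range -1.71 to 0.03). Hist1h2bc (0.33) and Hist2h2be (-0.48) were tested but had no matched promoter, and are in neither group.

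Most clustered histone genes had lower levels in the mutants than in the controls. Of the 53 tested, 49 had a negative log2 fold change (92.5%, against 50.8% of all 14572 genes tested), and their median was -0.64 against -0.01 for all genes. The size of this median rested on the mutant libraries: it was -1.06 without mutant 4 (53 of 56 negative) and -0.47 without mutant 6 (46 of 57 negative, 80.7%, against 52.8% of all genes), and between -0.52 and -0.75 without any 1 control. The test was passed by 3 members in the lower direction and 0 in the higher direction, against a background of 4.17% of all tested genes called lower and 6.11% called higher. The 3 of 53 called lower are a share near that background, so the count by itself is not a result about the histone genes. At an unadjusted p under 0.05, edgeR had 20 members lower and 0 higher, against 12.1% and 13.6% of all genes. That count was not stable: it was 5 of 57 without mutant 6 (8.23% of all genes, a share near it) and 6 of 47 without control 1 (8.64%), 13 of 51 without control 3 (11.5%), 20 of 56 without mutant 4 (8.31%) and 24 of 53 without control 2 (12.3%). DESeq2 had 14 of 53 lower at an unadjusted p under 0.05 (10.8% of all genes), and called 4 lower and 0 higher (background 4.82% and 7.14%). Without the filter on low counts, 7 of 68 members were called lower (background 4.59%): Hist1h1a, Hist1h1d, Hist1h2bb and Hist1h4d joined the 3 above, and 58 of the 68 were negative.

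Read by level alone, both mutants lay below all 3 controls in 35 of the 68 members (51.5%), where 17.7% of all genes with a count did so. The reverse, both mutants above all controls, held for 3 members, Hist1h1c, Hist1h2aa and Hist1h2ba, against 17.9% of all genes. The number called lower was 1 without mutant 4 (background 1.11%), 1 without mutant 6 (1.37%), 1 without control 1 (1.75%), 6 without control 2 (4.17%) and 2 without control 3 (4.43%), and Hist1h1b was among them each time. Precision followed read number: the median SE of the log2 fold change was 0.20 in the 8 members with at least 1000 counts in all and 0.60 in the 25 tested members with fewer than 200. In these bulk libraries fewer cells of a type and less RNA per cell cannot be told apart.

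**Figure D1:**
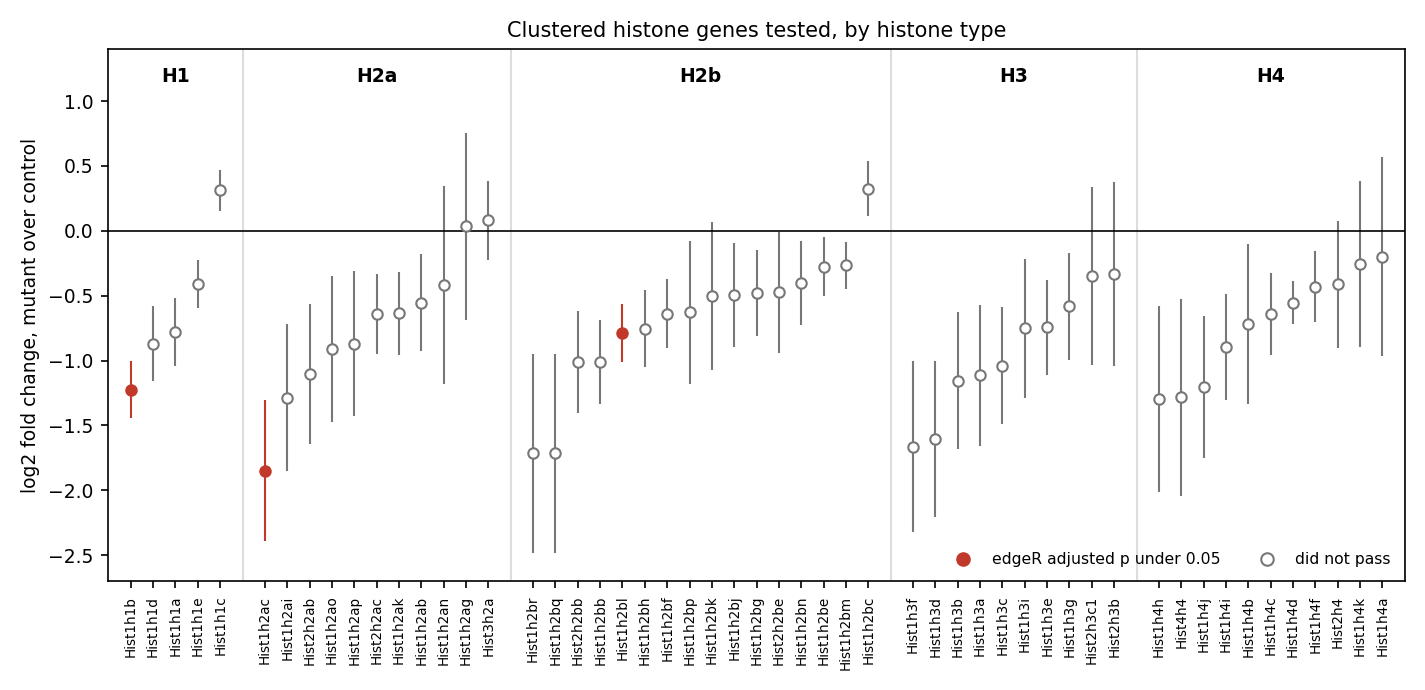
Log2 fold change of each of the 53 tested clustered histone genes, mutant over control, grouped by histone type (x axis, gene; y axis, log2 fold change; bars, SE). The 3 filled points, Hist1h1b, Hist1h2ac and Hist1h2bl, passed the test, and 4 points, Hist1h1c, Hist1h2ag, Hist3h2a and Hist1h2bc, lie above 0.

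Among the H1 genes, which encode the linker histones, 1 of the 5 tested was called lower, beside 4.17% of all genes. Of the 5, 4 were negative and the median was -0.78. Hist1h1b had 19.1 and 12.1 CPM in mutants 4 and 6, against 43.4, 34.8 and 31.0 CPM in controls 1, 2 and 3. Every control lay above both mutants, and the log2 fold change was -1.23 ± 0.22 (edgeR adjusted p = 0.00315). It had 216 and 157 counts in the mutants against 788, 588 and 440 in the controls, and none of the 100-base windows of its reference transcript occur in a transcript of another gene. The call held in all 16 alternative analyses, with the adjusted p at most 0.0444, in the fit without mutant 6.

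Hist1h1e, the H1 gene with the most counts, had 83.8 and 73.1 CPM in the mutants against 121, 74.8 and 116 CPM in the controls. Mutant 4 lay above control 2, so the groups overlapped, and the log2 fold change of -0.41 ± 0.19 did not pass (edgeR adjusted p = 0.187); without control 2 it was -0.58 and passed (adjusted p = 0.0161). Hist1h1d had 7.43 and 5.56 CPM in the mutants against 13.9, 8.17 and 13.4 CPM in the controls, without overlap (log2 fold change -0.87 ± 0.29, edgeR adjusted p = 0.0734). Hist1h1a also had both mutants below all controls, at -0.78 on the log2 scale (edgeR adjusted p = 0.0777).

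Hist1h1c was the exception in this type. It had 48.0 and 40.9 CPM in the mutants against 36.7, 31.1 and 39.5 CPM in the controls. Both mutants lay above every control, but the log2 fold change of 0.31 ± 0.16 did not pass (edgeR adjusted p = 0.229). Hist1h1b made up 11.5% and 8.82% of all H1 counts in the mutants, against 19.0%, 22.0% and 14.7% in the controls.

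Among the H2a genes, which encode the core histone H2A, 1 of 11 tested was called lower, beside 4.17% of all genes. Of the 11, 9 were negative and the median was -0.64 (-1.17 without mutant 4, and -0.45 without mutant 6). Hist1h2ac had 0.973 and 0.540 CPM in the mutants against 3.08, 1.78 and 3.31 CPM in the controls, the largest negative log2 fold change of the 53 (-1.85 ± 0.54, edgeR adjusted p = 0.0456). The groups did not overlap, but the counts were few, 11 and 7 in the mutants against 56, 30 and 47 in the controls, and the call was lost in 8 of 15 alternatives, with adjusted p from 0.0110 to 0.240. Among those 8 were the fits without control 1 (adjusted p = 0.153), without control 3 (0.0889), without mutant 4 (0.101) and without mutant 6 (0.240).

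The 4 H2a genes with the highest mean CPM did not pass. Hist2h2ac had 8.40 and 6.17 CPM in the mutants against 14.8, 7.22 and 12.04 CPM in the controls, and mutant 4 lay above control 2 (log2 fold change -0.64 ± 0.31). Hist1h2ak had 5.31 and 3.63 CPM against 8.70, 5.62 and 6.41 CPM in the controls, and Hist1h2ab 3.10 and 2.47 CPM against 5.18, 3.25 and 3.802 CPM, both without overlap (log2 fold changes -0.64 ± 0.32 and -0.56 ± 0.37). Hist3h2a, of the Hist3 cluster, had 9.47 and 5.02 CPM in the mutants, on both sides of the 6.33, 7.40 and 6.69 CPM of the controls, and a log2 fold change of 0.08 ± 0.30. Its sign turned in 4 alternatives, among them without mutant 4 (-0.44). The edgeR adjusted p of these 4 genes lay between 0.208 and 0.895.

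Among the H2b genes, which encode the core histone H2B, 1 of 16 tested was called lower, a share near the 4.17% of all genes. Of the 16, 15 were negative and the median was -0.57 (-0.87 without mutant 4, and -0.43 without mutant 6). Hist1h2bl had 17.2 and 12.2 CPM in the mutants against 30.7, 20.1 and 25.1 CPM in the controls. The groups did not overlap, and the log2 fold change was -0.79 ± 0.23 (edgeR adjusted p = 0.0411). The call was lost in 7 of 16 alternatives, including without control 1 (adjusted p = 0.184), without mutant 4 (0.0557) and without mutant 6 (0.284), and 62.1% of the 100-base windows of its reference transcript also occur in transcripts of other genes, so reads of near-identical copies may be among its counts.

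Hist1h2bm, the H2b gene with the highest level, had 34.6 and 32.0 CPM in the mutants against 49.4, 32.4 and 38.2 CPM in the controls, with mutant 4 above control 2 (log2 fold change -0.27 ± 0.18, edgeR adjusted p = 0.387). Hist1h2be had 13.5 and 14.3 CPM in the mutants, also overlapping the 20.5, 12.7 and 17.3 CPM of the controls (log2 fold change -0.28 ± 0.23, edgeR adjusted p = 0.474). Hist1h2bc was the 1 H2b gene with a positive value: 28.8 and 32.6 CPM in the mutants against 18.3, 31.4 and 23.9 CPM in the controls (log2 fold change 0.33 ± 0.21, edgeR adjusted p = 0.350). Control 2 lay between its mutants. Hist1h2bb, with 2.83 and 3.09 CPM in mutants and 6.83, 5.92 and 5.14 CPM in controls, missed the threshold in the main fit (log2 fold change -1.01 ± 0.32, edgeR adjusted p = 0.0646). Hist1h2bq and Hist1h2br had the same counts in every library and could not be told apart.

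All 10 tested H3 genes, which encode the core histone H3, were negative, with a median of -0.90 (range -1.66 to -0.33). The edgeR test was passed by 0 of them, and DESeq2 called 0. At an unadjusted p under 0.05 edgeR had 4 lower, beside 12.1% of all genes, and DESeq2 3, beside 10.8%. Neither the common sign nor the median held with 1 library left out: 3 of 11 tested H3 genes were positive without mutant 6 (median -0.53) and 1 of 9 without control 1 (-0.80), while the median was -1.26 without mutant 4. Hist1h3e, the H3 gene with the highest level, had 7.08 and 3.78 CPM in the mutants against 10.5, 5.39 and 11.3 CPM in the controls, with mutant 4 above control 2 (log2 fold change -0.74 ± 0.36). Hist1h3g had 2.92 and 2.24 CPM against 5.51, 3.25 and 2.75 CPM in the controls, again with an overlap (log2 fold change -0.58 ± 0.41). In Hist1h3c the mutants, at 1.504 and 1.543 CPM, lay below the controls, at 4.29, 2.43 and 2.68 CPM (log2 fold change -1.04 ± 0.45). Hist1h3a, at 1.77 and 0.617 CPM against 3.08, 1.78 and 2.82 CPM, had mutant 4 just below control 2 (log2 fold change -1.11 ± 0.54). The edgeR adjusted p of these 4 lay between 0.165 and 0.401.

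All 11 tested H4 genes, which encode the core histone H4, were negative too, with a median of -0.64 (range -1.30 to -0.20). The edgeR test was passed by 0 of them, and DESeq2 called 1, beside 4.82% of all genes. At an unadjusted p under 0.05 edgeR had 3 lower, beside 12.1% of all genes, and DESeq2 1, beside 10.8%. Without mutant 6, 2 of 11 were positive (median -0.43), and without control 1, 1 of 9 (-0.43), while the median was -1.10 without mutant 4. Hist1h4d carried most of the H4 signal: 85.5% and 87.1% of H4 counts in the mutants and 85.1%, 85.5% and 86.7% in the controls, and 25.1% to 27.2% of the counts of all 68 members. It had 127 and 105 CPM in the mutants against 198, 135 and 176 CPM in the controls. Both mutants lay below every control, and its log2 fold change of -0.55 ± 0.17 missed the threshold narrowly (edgeR adjusted p = 0.0508). It passed in 5 of 16 alternatives, among them DESeq2 (adjusted p = 0.0243), the fit with no filter (0.00298) and the fit without control 2 (0.00980), while without mutant 6 the adjusted p was 0.320; no 100-base window of its reference transcript occurs in another gene.

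The next H4 genes were far lower. Hist1h4f had 5.66 and 5.40 CPM in the mutants against 8.53, 6.75 and 7.04 CPM in the controls, and Hist1h4c 3.89 and 3.32 CPM against 6.44, 5.15 and 5.21 CPM, both without overlap (log2 fold changes -0.43 ± 0.27 and -0.64 ± 0.32). Hist2h4 had 3.72 and 1.39 CPM in the mutants against 4.57, 2.01 and 3.52 CPM in the controls (log2 fold change -0.41 ± 0.49). Its mutant 4 lay above controls 2 and 3, and mutant 6 below every control. On the authors' deposited FPKM (reads scaled for library size and transcript length), as log2(FPKM + 1), Hist2h4 passed with a log2 fold change of -1.19 (limma adjusted p = 0.0376), and without mutant 6 its edgeR value was 0.14.

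**Figure D2:**
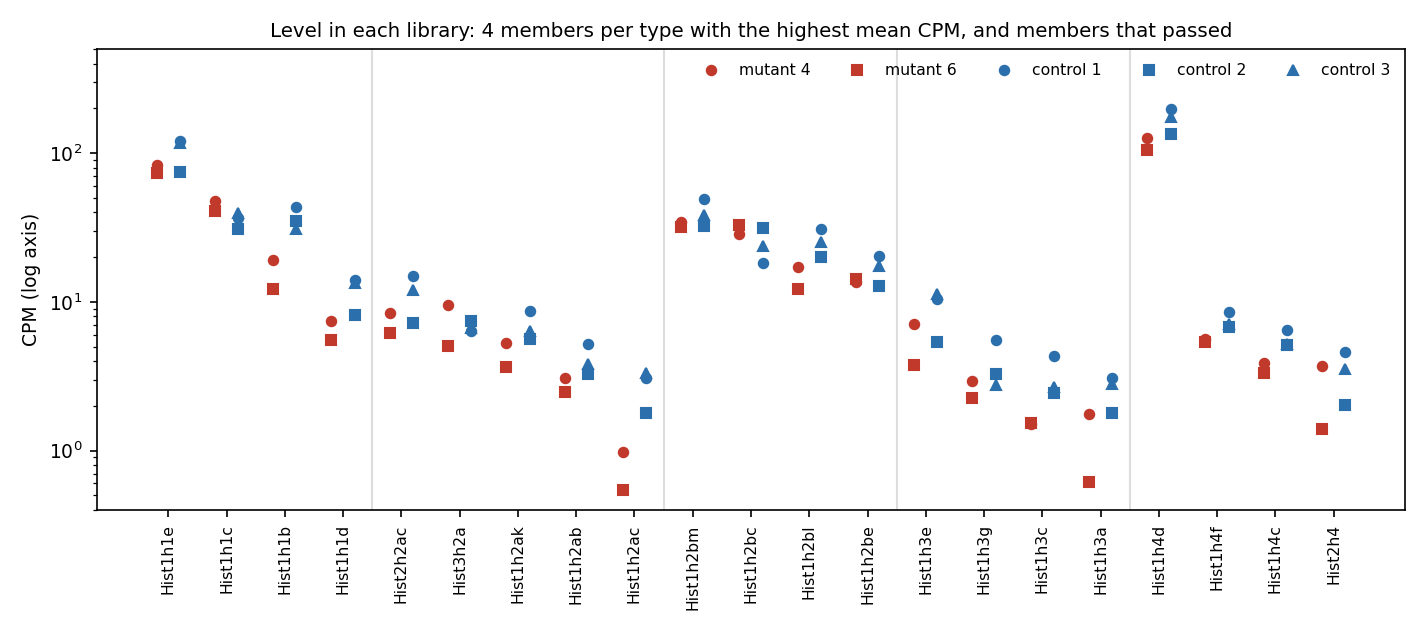
Level in each library (y axis, CPM on a log axis) of the 4 members per histone type with the highest mean CPM and of the members that passed the test (x axis, gene; red, mutants 4 and 6; blue, controls 1, 2 and 3). Control 2 is the lowest control in most of these genes, as in Hist1h1e at 74.8 CPM and Hist1h4d at 135 CPM.

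The 15 members left out of the test had 5 to 59 counts over all 5 libraries. Of these, the 3 testis histone genes stayed at trace level: Hist1h1t had 1 and 0 counts in the mutants against 1, 3 and 0 in the controls, Hist1h2aa 9 and 6 against 3, 0 and 3, and Hist1h2ba 2 and 2 against 0, 1 and 1. Hist1h2aa and its neighbour Hist1h2ba had both mutants above all controls, but at so few counts this is a description of these libraries. Hist3h2bb-ps, a pseudogene by its symbol, had 0 counts in both mutants against 3, 3 and 1 in the controls. No member was at 0 in every library.

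Compared per unit of transcript length, on the authors' deposited FPKM, the order of the members was steep. Whether the amplification captured RNAs with and without a poly(A) tail equally was not tested. Levels and fold changes may therefore not be those of the RNAs that end in the stem-loop. In both groups Hist1h4d came first with 296 and 222 FPKM in the mutants against 579, 399 and 385 FPKM in the controls. Hist1h2bm followed with 72.5 and 55.7 FPKM against 100, 59.9 and 67.9 FPKM, also in both groups. Below these the order differed by group. In the mutants Hist1h2bc came next (33.5 ± 1.54 FPKM, SD, n = 2), then Hist1h1e (31.3 ± 6.25) and Hist1h1c (24.4 ± 1.41), then Hist1h2bl (20.4 ± 4.38), Hist1h2bf (19.7 ± 2.00) and, in place 8, Hist1h1b (19.5 ± 4.58). In the controls Hist1h1b was in place 3 (56.5 ± 13.7 FPKM, SD, n = 3), followed by Hist1h1e (45.5 ± 10.5), Hist1h2bl (44.7 ± 17.1), Hist1h2bc (28.0 ± 6.10) and Hist1h2bf (27.6 ± 7.45), with Hist1h1c in place 9 (19.97 ± 1.64). Neighbours in each of these orders lay within each other's spread in most cases, as Hist1h2bl, Hist1h2bf and Hist1h1b did in the mutants and Hist1h1b, Hist1h1e and Hist1h2bl in the controls. In all, 15 members averaged over 10 FPKM and 21 under 1 FPKM.

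Near-identical sequence limits what single members can show. In 28 of the 67 members with a reference transcript over 50% of the 100-base windows, the length of a read, also occur in a transcript of another gene, and in 6 none do. The authors' placement of such reads is described in none of the sources at hand. The direction was the same at both ends: the 18 tested members with under 20% of windows shared had a median log2 fold change of -0.64 (17 of 18 negative), and the 19 with over 50% shared had -0.75. Members whose reference transcript ran on for over 300 bases past the stem-loop had a median of -0.74 (17 tested), those with a shorter end -0.64 (19 tested) and those with no match -0.75 (17 tested).

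Summing a type over its members is less exposed to reads that could go to several copies. All 68 members together had 505 and 417 CPM in the mutants against 736, 521 and 648 CPM in the controls, a mutant over control ratio of 0.727 (461 ± 62.2 CPM, SD, n = 2, against 635 ± 108 CPM, SD, n = 3). Both mutants lay below every control, mutant 4 by little. No test was made on a sum of chosen genes.

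By type, H3 had the lowest ratio, 0.571, with 21.5 and 12.6 CPM in the mutants against 37.5, 21.8 and 30.2 CPM in the controls. H2a, at 36.9 and 22.9 CPM against 54.3, 34.0 and 44.7 CPM, had a ratio of 0.674, and H4, at 148 and 120 CPM against 233, 158 and 203 CPM, one of 0.678. H1 had 166 and 137 CPM against 228, 158 and 211 CPM, a ratio of 0.761, and H2b 133 and 124 CPM against 184, 148 and 158 CPM, a ratio of 0.786. The groups did not overlap in H2b, H3 and H4, while mutant 4 lay above control 2 in H1 and H2a. These differences between types were not tested. H1 and H2b, with the largest ratios, hold Hist1h1c and Hist1h2bc, abundant members with positive log2 fold changes, and the median ratio of single members was 0.585 in H1 and 0.675 in H2b.

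**Figure D3:**
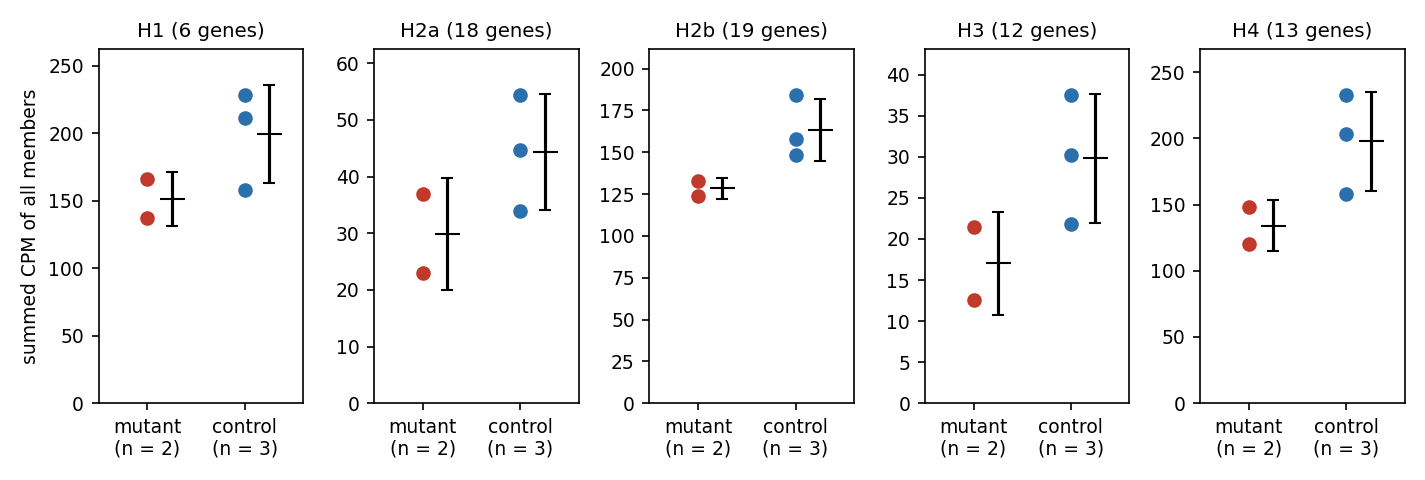
Summed level of all members of each histone type in each library (y axis, CPM from 0, a scale per panel; points, libraries; bars, mean ± SD, n = 2 mutants and 3 controls). Mutants lie below every control in H2b, H3 and H4, and 1 mutant lies within the control range in H1 and H2a.

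The mix of types moved little. H1 made up 32.8% and 32.9% of the summed level in the mutants against 31.0%, 30.4% and 32.6% in the controls, and H4 29.3% and 28.9% against 31.6%, 30.4% and 31.4%. H2b made up 26.3% and 29.7% against 25%, 28.5% and 24.4%, H2a 7.30% and 5.49% against 7.38%, 6.53% and 6.90%, and H3 4.26% and 3.01% against 5.09%, 4.18% and 4.66%. H4 was the 1 type whose mutants both lay below all controls in share, and H1 the 1 whose mutants both lay above. Single libraries moved the members together: over the 38 members with at least 100 counts in all, the median log2 difference from the control mean was -0.36 in mutant 4 and -0.81 in mutant 6, and 0.26, -0.26 and 0.01 in controls 1, 2 and 3. Control 2 was thus the lowest control for the histones, with 32 of the 38 members below the control mean. Mutant 4 had 33 and mutant 6 had 35. The control mean includes control 2 itself, so its count is not like for like with those of the mutants.

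H2a and H2b genes often stand head to head and share the stretch between their starts. There were 12 such pairs with starts at most 500 bases apart, and in 8 of them both genes were tested. Both were negative in 6 and the H2a gene was the lower in 4. Among these 8, the pair of Hist1h2ao and Hist1h2bq nearly repeats that of Hist1h2ap and Hist1h2br. The H2b genes had the same counts, and the H2a genes differed only in control 3 (25 and 23 counts). Hist1h2ac and Hist1h2bc, chosen here after their values were seen, stood furthest apart, at -1.85 and 0.33 on the log2 scale. Hist1h2bc had 29.6 and 60.4 times the counts of Hist1h2ac in the mutants, against 5.93, 17.7 and 7.21 times in the controls. Both mutants exceeded every control in this ratio, which was not tested. In the pair of Hist1h2ai and Hist1h2bl, both were negative, at -1.29 and -0.79.

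Histone variant genes outside the clusters are mostly transcribed through the whole cell cycle. Of 15 found, 10 were tested, and 3 were called lower and 0 higher, beside 4.17% and 6.11% of all genes, with a median of -0.18 (-0.06 without control 2, and -0.33 without mutant 6). H2afx, whose product is phosphorylated at DNA breaks, had 53.3 and 55.1 CPM in the mutants against 107, 106 and 108 CPM in the controls, with a log2 change of -0.98 ± 0.13 (edgeR adjusted p = 0.000300). Cenpa, the H3 variant of centromeres, had 32.1 and 27.5 CPM in the mutants against 57.1, 66.6 and 59.1 CPM in the controls (log2 fold change -1.03 ± 0.15, edgeR adjusted p = 0.000745). H2afv, an H2A.Z gene, had 73.7 and 82.0 CPM against 98.1, 145 and 105 CPM (log2 fold change -0.57 ± 0.17, edgeR adjusted p = 0.0448). All 3 had mutants below every control. H2afx and Cenpa were called in all 16 alternatives, while H2afv lost its call in 7, 3 of them by leaving out a library: control 2 (adjusted p = 0.0968), mutant 4 (0.270) or mutant 6 (0.130).

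The variant genes with the highest mean CPM did not pass. H3f3b, which encodes the replacement histone H3.3, had 265 and 281 CPM in the mutants, among controls of 239, 297 and 266 CPM (log2 fold change 0.03 ± 0.14). H1f0, the linker histone of quiescent cells, had 221 and 236 CPM in the mutants, below the controls at 255, 270 and 267 CPM (log2 fold change -0.21 ± 0.12, edgeR adjusted p = 0.320).

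Of 34 genes of histone gene transcription, histone RNA 3′ processing and decay, all tested, 4 were called lower and 0 higher, beside 4.17% and 6.11% of all genes, with a median of -0.21. The 4 were Pou2f1, which encodes the octamer factor Oct-1 (68.8 ± 11.2 CPM in mutants, against 104 ± 7.16 CPM in controls; log2 fold change -0.60 ± 0.14, edgeR adjusted p = 0.0166), Cdk2, the kinase of S phase entry (20.8 ± 1.25 against 31.9 ± 2.39 CPM; -0.62 ± 0.17, adjusted p = 0.0298), the poly(A)-binding protein gene Pabpc1 (299 ± 18.5 against 430 ± 18.3 CPM; -0.53 ± 0.13, adjusted p = 0.0192) and the RNA-decay gene Lsm4 (52.1 ± 6.45 against 72.4 ± 4.34 CPM; -0.47 ± 0.14, adjusted p = 0.0488). The call of Lsm4 was lost in 12 of 16 alternatives, among them each fit with 1 library left out (edgeR adjusted p from 0.0801 without control 2 to 0.358 without mutant 4). That of Cdk2 was lost in 6, among them without control 1 (0.113), control 2 (0.0562), mutant 4 (0.124) and mutant 6 (0.189), that of Pabpc1 in 4, among them without mutant 4 (0.115) and mutant 6 (0.193), and that of Pou2f1 in 3, among them without mutant 6 (0.218). Here and below, ± after a CPM is the SD over 2 mutants or 3 controls. Zcchc6, a uridylyltransferase gene, had 225 ± 11.9 CPM in mutants and 186 ± 11.5 CPM in controls and did not pass (edgeR adjusted p = 0.192). Slbp, Npat and Eri1 were named for their roles after their values were seen. Slbp had 25.3 and 28.5 CPM in the mutants against 40.4, 38.5 and 33.7 CPM in the controls, without overlap (log2 fold change -0.48 ± 0.16, edgeR adjusted p = 0.0731). Npat, which activates histone gene transcription, and Eri1, a nuclease acting on the histone stem-loop, also had both mutants below all controls but did not pass (log2 fold changes -0.30 and -0.50; edgeR adjusted p = 0.171 and 0.0518).

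Of 34 genes of histone chaperones and importers, 33 were tested, and 3 were called lower and 1 higher, beside 4.17% and 6.11% of all genes, with a median of -0.23. Hjurp, the chaperone of Cenpa, had 98.3 and 94.4 CPM in the mutants against 273, 224 and 256 CPM in the controls, with a log2 change of -1.38 ± 0.14 (edgeR adjusted p = 3.74e-05). Hira, the chaperone of H3.3, had 27.2 ± 1.46 CPM in mutants against 41.3 ± 6.64 CPM in controls (-0.60 ± 0.17, edgeR adjusted p = 0.0400), and Rbbp7, which binds H4, 125 ± 3.85 against 182 ± 18.0 CPM (-0.54 ± 0.14, edgeR adjusted p = 0.0200). Hjurp was called in all 16 alternatives; the call of Hira was lost in 8, among them without control 1 (adjusted p = 0.171), control 3 (0.0639), mutant 4 (0.153) and mutant 6 (0.212), and that of Rbbp7 in 4, among them without mutant 4 (0.141) and mutant 6 (0.167). Mcm2, a subunit of the replicative helicase that also binds H3 and H4, was the 1 called higher, at 96.3 and 118 CPM in the mutants against 82.4, 70.6 and 71.7 CPM in the controls (0.52 ± 0.14, edgeR adjusted p = 0.0307); it was not called without control 2, control 3, mutant 4 or mutant 6. The abundant Ncl and Atrx had both mutants below all controls and did not pass (-0.28 and -0.23, edgeR adjusted p = 0.183 and 0.261).

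Genes of S phase other than histones formed the last list. All 54 were tested, 15 were called lower and 1, Mcm2 again, higher, beside 4.17% and 6.11% of all genes, and 51 were negative (94.4%, against 50.8% of all genes), with a median of -0.38. The 15 were Dnmt1 itself, Mki67, on whose protein the areas were chosen, the helicase genes Mcm4, Mcm6 and Mcm10, the origin gene Orc1, the nucleotide synthesis genes Tyms and Tk1, the polymerase and ligase genes Pold1, Pold2 and Lig1, and Ccna2, E2f8, Uhrf1 and Top2a. Apart from Dnmt1 their log2 fold changes lay between -0.56 (Lig1) and -0.85 (Ccna2). The number called lower was 6 without control 1 (1.75% of all genes), 9 without control 2 (4.17%), 22 without control 3 (4.43%), 3 without mutant 4 (1.11%) and 5 without mutant 6 (1.37%). Dnmt1, Mki67 and Ccna2 were called in all 16 alternatives, and the other 12 genes lost their call in 2 (Tk1) to 10 (Orc1) of them.

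Ccna2, the S phase cyclin, had 111 and 108 CPM in the mutants against 200, 209 and 186 CPM in the controls (log2 fold change -0.85 ± 0.13, edgeR adjusted p = 0.000913). Top2a, a topoisomerase, had 239 and 213 CPM in the mutants against 395, 421 and 285 CPM in the controls (-0.70 ± 0.17, edgeR adjusted p = 0.0171), a call lost without control 1 (adjusted p = 0.0748), mutant 4 (0.0816) or mutant 6 (0.151). In both genes every mutant lay below every control. Summed over the 54 genes, the mutants had 2529 and 2581 CPM against 3853, 4147 and 3159 CPM in the controls. The ratio was 0.687, beside 0.727 for the clustered histones. This sum includes Mki67, on whose protein the areas were chosen (mean 508.5 CPM in mutants against 907.3 CPM in controls). It also includes the deleted gene Dnmt1 (39.1 against 115.5 CPM), so the 2 ratios cannot be ranked. The order of the controls differed between the sums: control 1 was the highest and control 2 the lowest for the histones, while control 2 was the highest and control 3 the lowest for the S phase genes.

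**Figure D4:**
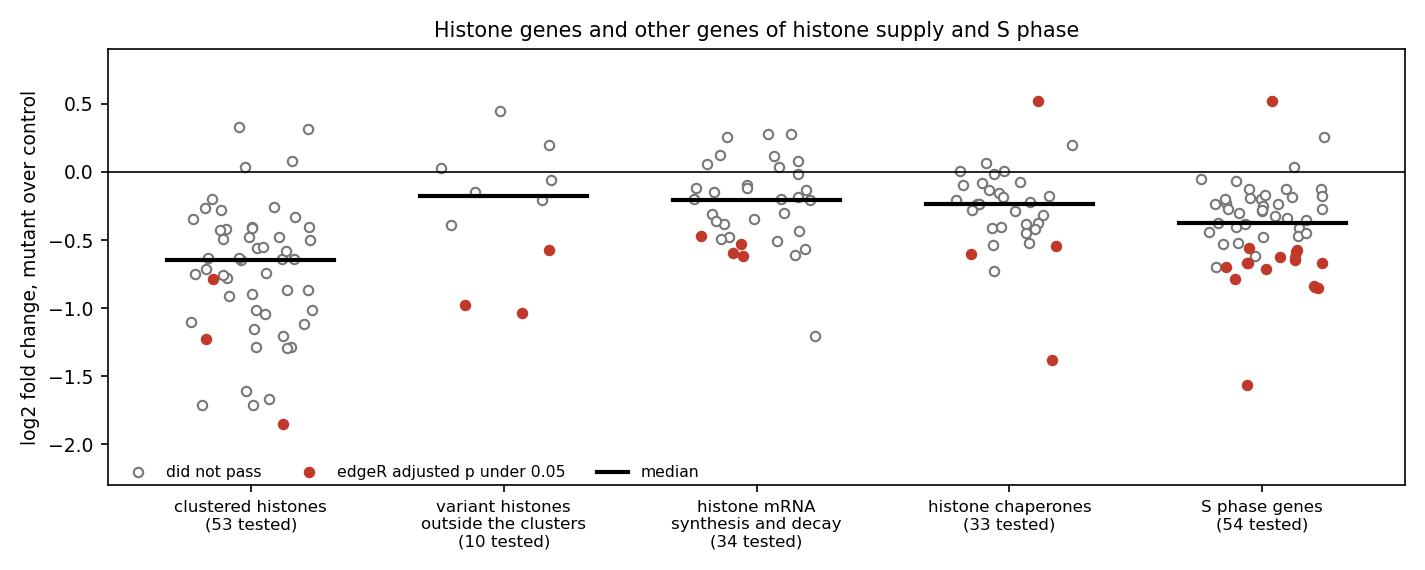
Log2 fold change, mutant over control (y axis), of the tested clustered histone genes and of 4 related gene lists (x axis; points, genes; filled, edgeR adjusted p under 0.05; bars, medians). The medians are -0.64 for clustered histones, -0.18 for variants, -0.21 for histone RNA genes, -0.23 for chaperones and -0.38 for S phase genes.

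Markers of other cell types moved between the groups as well. Of 13 mesenchyme and smooth muscle markers 7 were called higher (leaving out control 1, mutant 4 or mutant 6 gave 3, 0 and 4) and 0 lower, beside 6.11% and 4.17% of all genes, both mutants lay above all controls in 12, and their summed level was 2268 and 2116 CPM in the mutants against 1436 to 1591 CPM in the controls. Col3a1 and Col1a2, collagen genes and 2 of the most abundant of these, had log2 fold changes of 0.61 ± 0.12 and 0.64 ± 0.12 (edgeR adjusted p = 0.00665 and 0.00512). Immune markers summed to 243 and 225 CPM against 85.0 to 127 CPM (1 of 6 tested called higher, Csf1r), enteric neural markers to 54.5 and 57.2 CPM against 21.9 to 32.7 CPM (2 of 5 called higher, S100b and Uchl1, and 1 without control 1, control 3 or mutant 4) and endothelial markers to 206 and 182 CPM against 145 to 177 CPM (0 of 7 called by edgeR, 2 higher at an unadjusted p under 0.05). Erythroid markers summed to 68.5 and 67.7 CPM against 49.9 to 62.2 CPM (1 of 5 called, Alas2, lower, and 0 with any 1 library left out). At an unadjusted p under 0.05, edgeR had 13.6% of all genes higher. The immune marker Cd79a was at 0 in both mutants and in 2 controls.

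Epithelial markers summed to 4700 and 4579 CPM in the mutants against 4866 to 5001 CPM in the controls; of 12, 1 was called higher (Krt18, and 0 without mutant 4) and 1 lower (Cdx2, and 3 genes without control 3), with a median log2 fold change of -0.23. Of all genes tested, 6.11% were called higher and 4.17% lower. The part of these cell type shifts in the histone values was not tested.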

How the data were processed

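Per sample 2.3 to 33.3 ng of RNA of laser-captured cells were amplified, and the cDNA was sequenced as single reads of 100 bp, per the labels' protocols. The authors deposited raw counts per transcript and, in a second table with the same 28644 rows, FPKM values; genome build mm9 and edgeR are named in the submitters' processing notes, while the aligner, the counting program and how reads with several placements were treated are not given there. Per-sample columns without a sample numbered 0. The deposited counts were tested in R 4.3.3 with the edgeR 4.0.16 quasi-likelihood F-test (default filter on low counts, TMM, no covariate), adjusted by the Benjamini-Hochberg method over 19353 rows (14572 genes) and tested on simulated data first. Each SE is the log2 fold change, without sign, over the square root of F. Alternatives used other scalings and filters, DESeq2 1.42.0, the edgeR exact test, limma 3.58.1 (voom, and log2 FPKM with a pseudocount of 1 or 0.1) and each library left out. Named genes were the 4 members per type with the highest mean CPM, members called, 3 testis genes and, of other lists, genes called and the 2 with the highest mean CPM. Members and lists were chosen with earlier results of these data known. Symbols turned into spreadsheet dates (41 rows) were restored by transcript. RefSeq and GENCODE sequence (GRCm38) was matched to members by transcript.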

Additional observations from a re-analysis of the deposited data

How the results depend on the processing

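The number of clustered histone genes called lower was 3 in the main analysis, 1 with upper-quartile normalization (3.45% of all genes called lower there), 7 with no filter on low counts (4.59%), 6 with the edgeR exact test (5.57%) and 1 with limma-voom (3.47%), beside 4.17% in the main analysis; leaving out 1 library at a time gave 1 to 6. It was 0 for genes called higher in every alternative. Among genes of histone transcription and RNA decay, 4 were called lower, against 8 when scaled by library size only, 0 on log2 FPKM with either pseudocount, and 0 to 3 with 1 library left out. Among histone chaperones, 3 were called lower, against 6 by library size only, 6 with no filter, 5 with DESeq2, 5 with the exact test, 1 on FPKM with either pseudocount, and 1 to 6 with 1 library left out. Among S phase genes, 15 were called lower, against 4 on FPKM with either pseudocount and 3 to 22 with 1 library left out. Mcm2, the 1 gene called higher in both of the last lists, was not called on FPKM (0 genes higher in each list), and the count ran from 0 to 1 with 1 library left out. The summed ratio was 0.761 in H1 and 0.786 in H2b, against a median of member ratios of 0.585 and 0.675; with 1 library left out the H2a ratio, 0.674, ran from 0.517 to 0.832 and the H3 ratio, 0.571, from 0.422 to 0.721, both lowest without mutant 4. Counting rows with identical counts once, or leaving out Hist1h4d, both added after seeing the data, gave 0.727 and 0.743 for all members.

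The log2 fold change of Hist3h2a, 0.08, turned to -0.001 with limma-voom, -0.024 and -0.038 on FPKM with pseudocounts 1 and 0.1, and -0.44 without mutant 4, and ran from -0.44 to 0.47 with 1 library left out; that of Hist2h4, -0.41, turned to 0.14 without mutant 6 and ran from -1.27 to 0.14 with 1 library left out. For these changes the cause was not tested. Over all genes the median log2 fold change stayed between -0.06 and 0.03 in every alternative. Among alternatives for single named genes, 596 values kept direction and side of the threshold, 134 lost the call, 11 gained one and 5 turned sign. Without 1 mutant, the remaining mutant is assumed to vary like the controls. No paired analysis was possible because the groups share no replicate numbers (1, 2 and 3 against 4 and 6). Limits: 2 mutant libraries; few counts in many members (median SE 0.60 in the 25 tested members with under 200 counts); near-identical copies; genotype, choice of areas and sex-linked transcripts that go together; and amplified reads, which are not independent molecules.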

Other observations

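By cluster, 44 genes of the Hist1 cluster were tested, with a median log2 fold change of -0.73 and 41 negative. Of the 44, 3 were called lower, beside 4.17% of all genes. Of the Hist2 cluster 7 were tested, all negative, with a median of -0.48 and 0 called by edgeR or by DESeq2. At an unadjusted p under 0.05 edgeR had 1 lower, beside 12.1% of all genes, and DESeq2 1, beside 10.8%. The Hist2 values rested on single libraries: without mutant 6, 4 of 8 were negative (median -0.15), without control 1, 5 of 6 (-0.26), and without mutant 4, 7 of 8 (-1.205). Both mutants lay below all controls in 32 of 54 Hist1 members (59.3%) and in 2 of 10 Hist2 members, where 17.7% of all genes with a count did so. Hist4h4, the 1 member of its cluster, had 0.796 and 0.231 CPM in the mutants against 1.76, 0.473 and 1.48 CPM in the controls, with mutant 4 above control 2. The difference between clusters was not tested. Across the 53 tested members, the log2 fold change and the mean CPM had a Spearman correlation of 0.29, as a description over genes that share libraries.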
